A study of Mus musculus with 12 samples.

Results

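The nuclear factor kappa B (NF-kB) pathway and the cytokines and chemokines linked to it were followed across 12 RNA sequencing libraries of mouse liver progenitor cells, as a set of 32 listed genes among the 54146 gene identifiers in each count table. The genes were listed by name, with earlier results of these data known. They hold 5 NF-kB subunits, 5 inhibitors and cofactors of the IkB family, 8 signalling regulators and feedback genes, 5 adhesion, antioxidant and acute phase targets, and 9 cytokines and chemokines. All libraries came from BMEL cells, a bipotential line of embryonic liver progenitors isolated from a mouse with floxed Cdk8 alleles, so that every group derives from that background. The 4 groups of 3 libraries were Cdk8 -/- cells transformed by H-Ras with the activating RasG12V change, Cdk19 -/- cells with the same transformation, wild-type cells with the same transformation, and wild-type cells without transformation. They are called Cdk8 knockout, Cdk19 knockout, RasG12V and untransformed cells. Cells were cultured on a collagen coat in medium with serum and the growth factors insulin, IGF2 and EGF, and were harvested in exponential growth. The labels do not say whether a knockout or a transformed line was 1 clone, how the alleles were deleted, or whether replicates were separate cultures. The p-values therefore measure the spread among libraries of a group, which may be technical.

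NF-kB is a family of dimeric transcription factors that the IkB proteins hold in the cytoplasm until an IkB kinase, set off by receptors for tumour necrosis factor, interleukin 1 or microbial products, marks them for destruction. The freed dimers, chiefly Rela with Nfkb1 in the canonical branch and Relb with processed Nfkb2 in the non-canonical one, bind kappaB motifs near genes for cytokines, chemokines, adhesion molecules and survival factors, and near genes for their own inhibitors, which closes a feedback loop. In the liver the pathway is known for protecting epithelial cells from death by tumour necrosis factor and for recruiting leukocytes, and oncogenic Ras is known to alter cytokine production in many cell types. Cdk8 and Cdk19 are paralogous kinases of the Mediator complex, and Cdk8 is known as a cofactor at some NF-kB target genes.

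Libraries held 24823560 to 36879661 reads counted to genes, and a floor of 3 counts in a library corresponded to 0.0813 to 0.121 CPM. CPM are counts scaled to a common library size, here with TMM factors. Replicate 3 of RasG12V cells and replicate 3 of untransformed cells stood apart from their groups over all genes. On the first principal component, with 60.2% of the variance, RasG12V replicate 3 lay at 4.75, against 28.0 and 28.4 for its companions. Untransformed replicate 3 lay there at -58.7, against -77.5 and -74.0, so each of these libraries was shifted toward the other group. RasG12V replicate 3 lay at -53.2 on the second principal component of the 14283 genes tested, against 12.7 and 13.1 for the other RasG12V libraries, and untransformed replicate 3 at -15.8, against 9.49 and 15.99 for its companions. Results are given with all 12 libraries, and calls and their values also, as "10 libraries", without these 2. Hras had 313 to 537 CPM in RasG12V cells and 40.7 to 57.5 CPM in untransformed cells. In Cdk8 knockout cells Hras had 444 to 456 CPM and in Cdk19 knockout cells 402 to 439 CPM, without overlap between the knockouts. The part of these Hras levels in the results was not tested. Cdk19 had 45.0 to 53.1 CPM in Cdk19 knockout, 64.7 to 93.6 CPM in RasG12V and 83.4 to 91.7 CPM in untransformed cells. Cdk8 had 41.4 to 43.8 CPM in Cdk8 knockout, 50.9 to 56.4 CPM in RasG12V and 43.7 to 49.6 CPM in untransformed cells, so that its knockout and untransformed ranges touched. Counts over a whole gene do not check the deleted part. The 12 epithelial and liver progenitor markers summed to 6678 to 10110 CPM in all libraries, although Epcam did not exceed 0.211 CPM in any. Of these markers 11 averaged at least 1 CPM in untransformed cells and 10 in each transformed group. The 5 mesothelial markers summed to 1477 to 1545 CPM in Cdk8 knockout, 1205 to 1297 CPM in Cdk19 knockout, 1407 to 1495 CPM in RasG12V and 1449 to 1723 CPM in untransformed cells, nearly all from Msln and Podxl, with Wt1 at 0.104 CPM or less. Stellate cell and fibroblast markers summed to at most 2.45 CPM, and endothelial markers to at most 0.624 CPM. Among 11 macrophage and leukocyte markers, Adgre1, Tyrobp and Cd3e were at 0 in all 12 libraries, and the summed level of the list was 40.2 to 47.1 CPM in Cdk8 knockout, 34.6 to 38.7 CPM in Cdk19 knockout, 33.8 to 60.6 CPM in RasG12V and 36.3 to 46.0 CPM in untransformed cells. Most of this sum was Cd14, which other cell types also express, and its part in the results was not tested.

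The 200 bases before the RefSeq start of 4 members are shown first, because these genes had some of the largest differences below. Genes with several RefSeq windows, or with a window that a GENCODE exon covers in part, were not printed. Tnfaip2, which had a larger difference than Csf1 and a kappaB match at -24, was passed over by this rule. They were taken from RefSeq on GRCm38.p6, 5′ to 3′ on the gene's strand, for Ccl9 at chr11:83578637-83578836 (minus strand), Ccl20 at chr1:83116566-83116765 (plus strand), Csf1 at chr3:107760470-107760669 (minus strand) and Csf2 at chr11:54249900-54250099 (minus strand). Capitals mark the kappaB consensus of 10 bases and the AP-1 pattern TGANTCA, each searched on both strands. The N in this pattern allows any base.
Ccl9: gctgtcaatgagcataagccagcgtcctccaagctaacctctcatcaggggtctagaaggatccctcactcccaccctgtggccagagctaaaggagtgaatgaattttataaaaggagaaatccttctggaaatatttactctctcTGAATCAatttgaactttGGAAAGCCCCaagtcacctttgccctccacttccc
Ccl20: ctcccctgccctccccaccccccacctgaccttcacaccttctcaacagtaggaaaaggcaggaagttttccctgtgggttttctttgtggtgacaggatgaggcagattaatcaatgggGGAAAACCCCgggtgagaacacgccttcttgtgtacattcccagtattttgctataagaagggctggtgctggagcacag
Csf1: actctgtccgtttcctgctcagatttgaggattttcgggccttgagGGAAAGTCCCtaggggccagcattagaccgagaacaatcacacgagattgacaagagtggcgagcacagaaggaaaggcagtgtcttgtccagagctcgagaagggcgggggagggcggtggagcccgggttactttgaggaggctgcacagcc
Csf2: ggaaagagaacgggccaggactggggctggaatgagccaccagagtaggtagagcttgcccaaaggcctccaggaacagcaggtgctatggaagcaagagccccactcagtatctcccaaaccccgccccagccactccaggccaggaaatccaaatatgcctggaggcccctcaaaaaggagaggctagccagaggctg

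A kappaB match began at position -35 relative to the start of Ccl9, at -80 for Ccl20 and at -154 for Csf1. Ccl9 also carried a match to the AP-1 pattern, TGAATCA with A as its middle base, that began at -53. The Csf2 stretch held neither motif, and it ends 232 bases before the gene's start in GENCODE, so the sequence next to that start is not in it. RefSeq windows were matched for 26 of the 32 members, some with several. Over the 250 bases before the start, 15 of their 31 windows had a kappaB match, against 7.25% of all 32851 RefSeq promoters. By gene, 13 of the 26 had a match in some window: Ccl20, Ccl9, Csf1, Cxcl1, Lif, Nfkb2, Nfkbia, Nfkbie, Rel, Sod2, Tnfaip2, Tnfaip3 and Tnip1. An AP-1 match lay in 5 of the 31 windows, against 6.75% of all promoters, and in 5 of the 26 genes (Ccl9, Lif, Nfkb2, Nfkbie and Tnfaip3). The members are in part known for such motifs, and a match describes letters and not binding.

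Of the 32 members, 26 passed the filter on low counts and 6 were too low to test. Tnf, the founding cytokine of the pathway, had 3 counts in the 12 libraries together and a highest level of 0.0705 CPM. Saa3, an acute phase protein, reached at most 0.0603 CPM, Birc3, an inhibitor of apoptosis, 0.0691 CPM, Cd40, a costimulatory receptor, 0.122 CPM, Lcn2, an iron-sequestering acute phase protein, 0.155 CPM, and Traf1, a receptor adaptor, 0.255 CPM. Levels of different genes were compared per kilobase of exon. On that scale Il33, an alarmin of the interleukin 1 family that is stored in the nucleus, was the most abundant member in every group, with means of 173 in Cdk8 knockout, 109 in Cdk19 knockout, 142 in RasG12V and 194 in untransformed cells (CPM per kilobase, n = 3 each). Rela, the transactivating subunit of the canonical dimer, averaged 24.8 in Cdk8 knockout, 24.6 in Cdk19 knockout, 23.9 in RasG12V and 26.6 in untransformed cells (CPM per kilobase, n = 3 each). Relb, the subunit of the non-canonical branch, averaged 0.728 in Cdk8 knockout, 0.635 in Cdk19 knockout, 0.701 in RasG12V and 1.07 in untransformed cells (CPM per kilobase, n = 3 each). Rela RNA was thus many times more abundant than Relb RNA in each group. The partner subunits lay the other way. Nfkb2 averaged 12.6 in Cdk8 knockout, 12.2 in Cdk19 knockout, 11.5 in RasG12V and 13.3 in untransformed cells. Nfkb1 averaged 4.1, 4.5, 4.1 and 5.2 in the same order (CPM per kilobase, n = 3 each).

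**Figure D1:**
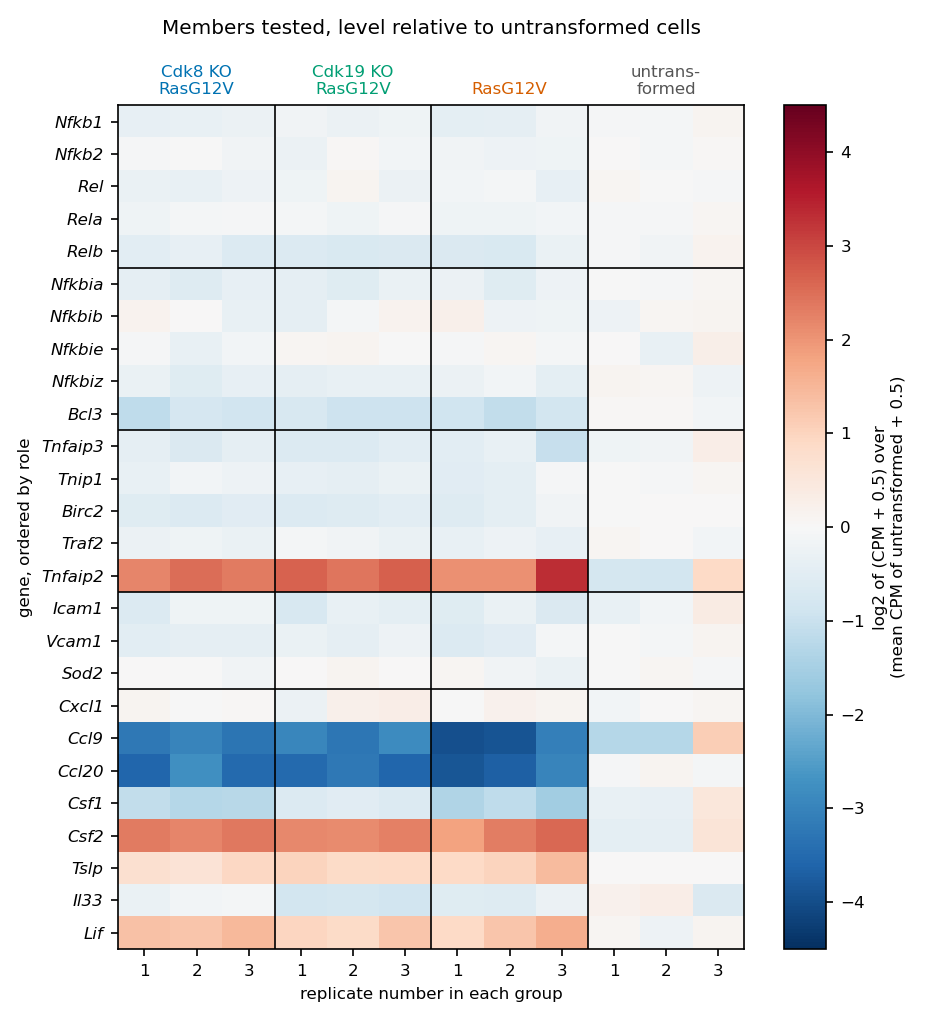
Level of the 26 members tested in each of the 12 libraries (columns, by group and replicate number) as log2 of CPM + 0.5 over the mean of untransformed cells + 0.5. The 4 rows of Tnfaip2, Csf2, Tslp and Lif are higher and those of Ccl9, Ccl20, Csf1 and Bcl3 lower in all 9 transformed libraries, and replicate 3 of untransformed cells differs from the other 2 in Tnfaip2, Ccl9, Csf1 and Il33.

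The first comparison asked what transformation did to these genes. In RasG12V cells, against untransformed cells, 4 members rose and 10 fell by edgeR's quasi-likelihood test at an adjusted p of 0.05, while 23.4% of all 14283 genes tested changed, with 11.9% higher and 11.5% lower. The 4 that rose were 3 secreted factors (Csf2, Lif and Tslp) and the TNF-induced gene Tnfaip2. The 10 that fell were the chemokines Ccl9 and Ccl20, the growth factor Csf1, and 7 genes of the signalling machinery and its targets (Bcl3, Relb, Nfkb1, Tnfaip3, Birc2, Traf2 and Vcam1). With 10 libraries the same 4 rose and 14 fell, against 40.0% of genes changed (19.0% higher and 21.0% lower). With all 12 libraries the median log2 fold change of the 26 members was -0.32, against 0.00 for all genes tested. DESeq2 called 16 members (26.2% of all genes), a fit on these 2 groups alone called 8 (11.4%), and a fit without RasG12V replicate 1 called 9 (18.5%). The fit on 2 groups lost the calls for Nfkb1, Relb, Tnfaip3, Birc2, Traf2 and Vcam1 (adjusted p = 0.13, 0.139, 0.136, 0.134, 0.118 and 0.17). Without the filter on low counts those for Relb, Tnfaip3 and Traf2 were lost (0.0814, 0.0573 and 0.103).

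Among the 5 subunits, 2 fell and none rose. Nfkb1, which encodes the p105 precursor of the p50 subunit, had 48.0, 50.1 and 51.5 CPM in Cdk8 knockout cells and 55.8, 52.3 and 54.4 CPM in Cdk19 knockout cells. RasG12V libraries held 46.4, 47.1 and 55.5 CPM, against 60.1, 59.1 and 68.4 CPM in untransformed cells. All 3 RasG12V libraries lay below all untransformed libraries, by little for replicate 3 (log2 fold change -0.33, SE 0.09, edgeR adjusted p = 0.0161; with 10 libraries log2 fold change -0.37, SE 0.07, adjusted p = 0.000436). Relb had 2.87, 3.09 and 2.53 CPM in Cdk8 knockout cells and 2.54, 2.38 and 2.48 CPM in Cdk19 knockout cells. RasG12V libraries held 2.48, 2.37 and 3.32 CPM, against 4.01, 3.71 and 4.71 CPM in untransformed cells. The RasG12V and untransformed values did not overlap, and the highest RasG12V library was again replicate 3 (log2 fold change -0.60, SE 0.17, edgeR adjusted p = 0.0254; with 10 libraries log2 fold change -0.68, SE 0.19, adjusted p = 0.00679). Both calls were lost with 1 library left out. That for Nfkb1 was lost without RasG12V replicate 1 or 2 (adjusted p = 0.0789 and 0.0784). That for Relb was lost without either of these (0.0952 and 0.105) or without untransformed replicate 1 or 3 (0.0544 and 0.0653). Rela, Rel and Nfkb2 did not pass the test, with log2 fold changes of -0.16, -0.19 and -0.21 (adjusted p = 0.16, 0.303 and 0.104), nor with 10 libraries (0.142, 0.37 and 0.0936). Rel, the subunit best known from lymphocytes, had 11, 10.8 and 11.6 CPM in Cdk8 knockout cells and 11.9, 14.7 and 11.4 CPM in Cdk19 knockout cells. RasG12V libraries held 12.5, 12.8 and 10.4 CPM, against 14.4, 13.4 and 13.0 CPM in untransformed cells. Its RasG12V and untransformed libraries did not overlap, but the gap between them was small.

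Bcl3 was the 1 member of the IkB group that fell with all libraries. It encodes a nuclear IkB protein that works with p50 and p52 dimers on DNA, and had 5.34, 7.03 and 6.603 CPM in Cdk8 knockout cells and 7.27, 6.26 and 6.12 CPM in Cdk19 knockout cells. RasG12V libraries held 6.41, 5.36 and 6.63 CPM, against 12.8, 12.8 and 11.2 CPM in untransformed cells. The RasG12V libraries lay within the range of the knockout libraries and far below the untransformed ones (log2 fold change -0.997, SE 0.14, edgeR adjusted p = 0.000273, 1.995-fold lower; with 10 libraries log2 fold change -1.13, SE 0.15, adjusted p = 4.86e-06). Nfkbia, the IkB alpha that closes the feedback loop, had 9.69, 8.63 and 10.0 CPM in Cdk8 knockout cells and 9.59, 8.74 and 10.4 CPM in Cdk19 knockout cells. RasG12V libraries held 10.8, 8.75 and 11.2 CPM, against 12.7, 12.6 and 13.7 CPM in untransformed cells. The groups did not overlap, yet the test was not passed with all libraries (log2 fold change -0.34, SE 0.12, edgeR adjusted p = 0.062) and was passed with 10 (log2 fold change -0.38, SE 0.13, edgeR adjusted p = 0.0272) or without RasG12V replicate 3 alone (0.0333). With all libraries it was called by DESeq2 (0.0381) and by edgeR with a block for the replicate number (0.0272). Nfkbiz, an inducible nuclear IkB protein, had 83.2, 70.4 and 80.6 CPM in Cdk8 knockout cells and 78.4, 81.3 and 82.7 CPM in Cdk19 knockout cells. RasG12V libraries held 86.9, 94.8 and 75.7 CPM, against 113, 109.6 and 87.9 CPM in untransformed cells. RasG12V replicate 2 lay above untransformed replicate 3, so the groups overlapped (log2 fold change -0.27, SE 0.11, edgeR adjusted p = 0.0985), while with 10 libraries Nfkbiz fell (log2 fold change -0.31, SE 0.08, edgeR adjusted p = 0.0041), as it did without untransformed replicate 3 alone (0.0162). Nfkbib and Nfkbie, the IkB beta and epsilon genes, had log2 fold changes of -0.06 and -0.03 with adjusted p of 0.855 and 0.942, and were not called with 10 libraries either (0.855 and 0.565). Reads of Nfkbib overlap the gene Sirt2 on the opposite strand, and strand-specific counts were used.

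Of the 5 signalling regulators tested, 1 rose and 3 fell. Tnfaip2, an exocyst-related protein induced by tumour necrosis factor, had 67.2, 85.1 and 74.5 CPM in Cdk8 knockout cells and 93.2, 78.2 and 95.5 CPM in Cdk19 knockout cells. RasG12V libraries held 61.8, 62.3 and 149.8 CPM, against 8.13, 7.86 and 27.3 CPM in untransformed cells. Every RasG12V library was above every untransformed one, and replicate 3 of either group lay well above its companions (log2 fold change 2.66, SE 0.46, edgeR adjusted p = 0.0012; with 10 libraries log2 fold change 2.94, SE 0.12, adjusted p = 3.7e-12). Tnfaip3, the deubiquitinase A20 that shuts the pathway down, had 167, 142 and 169 CPM in Cdk8 knockout cells and 145, 145 and 161 CPM in Cdk19 knockout cells. RasG12V libraries held 161, 178 and 108 CPM, against 196, 198 and 276 CPM in untransformed cells. The 2 groups did not overlap, and their replicates 3 were the extremes in opposite directions (log2 fold change -0.58, SE 0.17, edgeR adjusted p = 0.0281; with 10 libraries log2 fold change -0.23, SE 0.08, adjusted p = 0.0344). Tnip1, a partner of A20, had 56.3, 64.3 and 60.4 CPM in Cdk8 knockout cells and 54.6, 52.8 and 56.7 CPM in Cdk19 knockout cells. RasG12V libraries held 49.2, 52.1 and 68.0 CPM, against 69.0, 68.3 and 74.3 CPM in untransformed cells. Its groups did not overlap by a narrow gap and it missed the threshold with all libraries (log2 fold change -0.32, SE 0.11, edgeR adjusted p = 0.0531), but fell with 10 (log2 fold change -0.45, SE 0.08, adjusted p = 9.72e-05) and without RasG12V replicate 3 alone (adjusted p = 0.000543). With all libraries it passed in DESeq2 (0.0365), in edgeR with a block for the replicate number (0.0277) and without the filter on low counts (0.0441). The call for Tnfaip3 was lost without untransformed replicate 3 (0.0986), besides the fits named above. The rise of Tnfaip2 had a log2 fold change of 3.52 without untransformed replicate 3.

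Birc2, the ubiquitin ligase cIAP1, had 30.7, 29.3 and 31.5 CPM in Cdk8 knockout cells and 29.6, 30.0 and 32.8 CPM in Cdk19 knockout cells. RasG12V libraries held 30.2, 33.3 and 41.0 CPM, against 44.4, 45.6 and 46.1 CPM in untransformed cells. Its RasG12V libraries were all below the untransformed ones (log2 fold change -0.38, SE 0.10, edgeR adjusted p = 0.0183; with 10 libraries log2 fold change -0.52, SE 0.08, adjusted p = 5.76e-05). Traf2, the adaptor that brings cIAP1 to receptors, had 28.6, 30.5 and 27.8 CPM in Cdk8 knockout cells and 33.1, 31.0 and 28.2 CPM in Cdk19 knockout cells. RasG12V libraries held 27.3, 29.6 and 27.1 CPM, against 37.4, 35.0 and 31.9 CPM in untransformed cells. Here too the groups did not overlap, with the lowest untransformed library close to the highest RasG12V one (log2 fold change -0.31, SE 0.09, edgeR adjusted p = 0.0254, 1.24-fold lower; with 10 libraries log2 fold change -0.36, SE 0.09, adjusted p = 0.00352). The call for Birc2 was lost without untransformed replicate 2 or RasG12V replicate 1 or 2 (adjusted p = 0.054, 0.0857 and 0.0755), and that for Traf2 without untransformed replicate 1 or 2 or RasG12V replicate 1 (0.0958, 0.0654 and 0.0868). Reads of Birc2 that also map to its paralog Birc3 were not counted, so the level of either is uncertain.

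Vcam1, an adhesion molecule that binds leukocyte integrins, had 165, 173 and 174 CPM in Cdk8 knockout cells and 188, 171 and 196 CPM in Cdk19 knockout cells. RasG12V libraries held 150.4, 159.9 and 214 CPM, against 223, 216 and 247 CPM in untransformed cells. All RasG12V libraries were below all untransformed ones, replicate 3 by the least (log2 fold change -0.39, SE 0.12, edgeR adjusted p = 0.0301; with 10 libraries log2 fold change -0.52, SE 0.07, adjusted p = 9.76e-06). Its call was lost in 7 of the 12 fits with 1 library left out, namely without replicate 1 or 3 of untransformed cells (adjusted p = 0.063 and 0.0789), replicate 1 or 2 of RasG12V cells (0.13 and 0.124), replicate 1 or 2 of Cdk8 knockout cells (0.0509 and 0.051) or replicate 1 of Cdk19 knockout cells (0.0516). Icam1, a related adhesion molecule, averaged 0.507 ± 0.13 CPM in RasG12V and 0.907 ± 0.37 CPM in untransformed cells (SD, n = 3 each), and its libraries overlapped (adjusted p = 0.111). Sod2, the mitochondrial superoxide dismutase and a classical NF-kB target, averaged 42.1 ± 5.8 CPM in RasG12V and 45.6 ± 2.2 CPM in untransformed cells, with overlapping libraries (adjusted p = 0.456).

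The largest differences were among the cytokines and chemokines, and they ran in both directions: of the 8 tested, 3 rose and 3 fell. Ccl20, the ligand of the receptor CCR6 that attracts dendritic cells and lymphocytes, had 4.17, 7.60 and 4.38 CPM in Cdk8 knockout cells and 4.44, 5.39 and 4.18 CPM in Cdk19 knockout cells. RasG12V libraries held 3.35, 3.84 and 6.63 CPM, against 53.3, 59.8 and 51.2 CPM in untransformed cells. All transformed libraries lay far below all untransformed ones (log2 fold change -3.56, SE 0.27, edgeR adjusted p = 2.16e-06, 11.8-fold lower; with 10 libraries log2 fold change -3.99, SE 0.24, adjusted p = 1.14e-07). Ccl9, a mouse chemokine of the macrophage inflammatory protein family, had 2.62, 3.20 and 2.53 CPM in Cdk8 knockout cells and 3.35, 2.56 and 3.61 CPM in Cdk19 knockout cells. RasG12V libraries held 1.39, 1.47 and 2.98 CPM, against 11.5, 11.5 and 63.1 CPM in untransformed cells. Untransformed replicate 3 lay far above its companions, and no library of the groups overlapped (log2 fold change -3.86, SE 0.63, edgeR adjusted p = 0.000794; with 10 libraries log2 fold change -3.02, SE 0.20, adjusted p = 3.23e-10, 8.12-fold lower). Without untransformed replicate 3 alone its log2 fold change was -2.54. Ccl9 lies in a cluster of related chemokine genes, and reads that also map to another gene were not counted, so its level is uncertain. Csf1, the growth factor of macrophages, had 43.8, 38.8 and 39.8 CPM in Cdk8 knockout cells and 61.4, 66.5 and 61.7 CPM in Cdk19 knockout cells. RasG12V libraries held 36.6, 42.2 and 31.4 CPM, against 74.9, 72.7 and 136 CPM in untransformed cells. Untransformed replicate 3 was again the highest library, and the RasG12V libraries lay below all untransformed ones (log2 fold change -1.37, SE 0.20, edgeR adjusted p = 0.000434; with 10 libraries log2 fold change -0.92, SE 0.08, adjusted p = 3.72e-08).

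Csf2, which encodes the granulocyte-macrophage growth factor GM-CSF, had 6.37, 5.72 and 6.54 CPM in Cdk8 knockout cells and 5.57, 5.39 and 6.02 CPM in Cdk19 knockout cells. RasG12V libraries held 4.23, 6.22 and 7.66 CPM, against 0.497, 0.526 and 1.55 CPM in untransformed cells. All transformed libraries were above all untransformed ones, of which replicate 3 was the highest (log2 fold change 2.79, SE 0.35, edgeR adjusted p = 0.000121, 6.92-fold higher; with 10 libraries log2 fold change 3.32, SE 0.25, adjusted p = 2.75e-09). Without untransformed replicate 3 alone the log2 fold change was 3.55. Lif, a cytokine of the interleukin 6 family, had 82.6, 79.0 and 92.3 CPM in Cdk8 knockout cells and 64.6, 59.6 and 78.7 CPM in Cdk19 knockout cells. RasG12V libraries held 62.5, 78.4 and 104 CPM, against 34.8, 28.1 and 35.8 CPM in untransformed cells. The RasG12V libraries spread widely and none overlapped the untransformed ones (log2 fold change 1.31, SE 0.17, edgeR adjusted p = 0.000152, 2.48-fold higher; with 10 libraries log2 fold change 1.15, SE 0.16, adjusted p = 0.000161). Tslp, an epithelial cytokine that acts on dendritic cells, was counted 34 times in Cdk8 knockout, 39 times in Cdk19 knockout and 52 times in RasG12V cells, summed over 3 libraries each, and not at all in untransformed cells. Against a floor of 3 counts over the untransformed group it was at least 18.8-fold higher in RasG12V cells (adjusted p = 0.000112 for edgeR's test, and 8.42e-05 with 10 libraries), and its level stayed under 1 CPM in each library. Cxcl1, a neutrophil chemokine, averaged 2.67 ± 0.21 CPM in RasG12V and 2.44 ± 0.23 CPM in untransformed cells, with overlapping libraries (adjusted p = 0.692). These counts come from bulk RNA, in which fewer cells that express a gene and less RNA per cell cannot be told apart.

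Il33 differed between the libraries of untransformed cells. It had 460.1, 512 and 524 CPM in Cdk8 knockout cells and 312, 321 and 307 CPM in Cdk19 knockout cells. RasG12V libraries held 385, 370.2 and 471 CPM, against 644, 679.9 and 354 CPM in untransformed cells. Untransformed replicates 1 and 2 lay above all transformed libraries and replicate 3 below all RasG12V libraries, so the groups overlapped and the difference was not called with all libraries (log2 fold change -0.45, SE 0.19, edgeR adjusted p = 0.11). With 10 libraries Il33 fell in RasG12V cells (log2 fold change -0.83, SE 0.07, adjusted p = 1.77e-08, 1.77-fold lower), and it did so without untransformed replicate 3 alone (log2 fold change -0.70, adjusted p = 0.000435). The calls for Bcl3, Ccl20, Ccl9, Csf1, Csf2, Lif, Tnfaip2 and Tslp held in each of the 12 fits that left out 1 library. Over the 26 members the libraries of RasG12V and untransformed cells did not overlap for 19, against 32.3% of all genes tested.

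**Figure D2:**
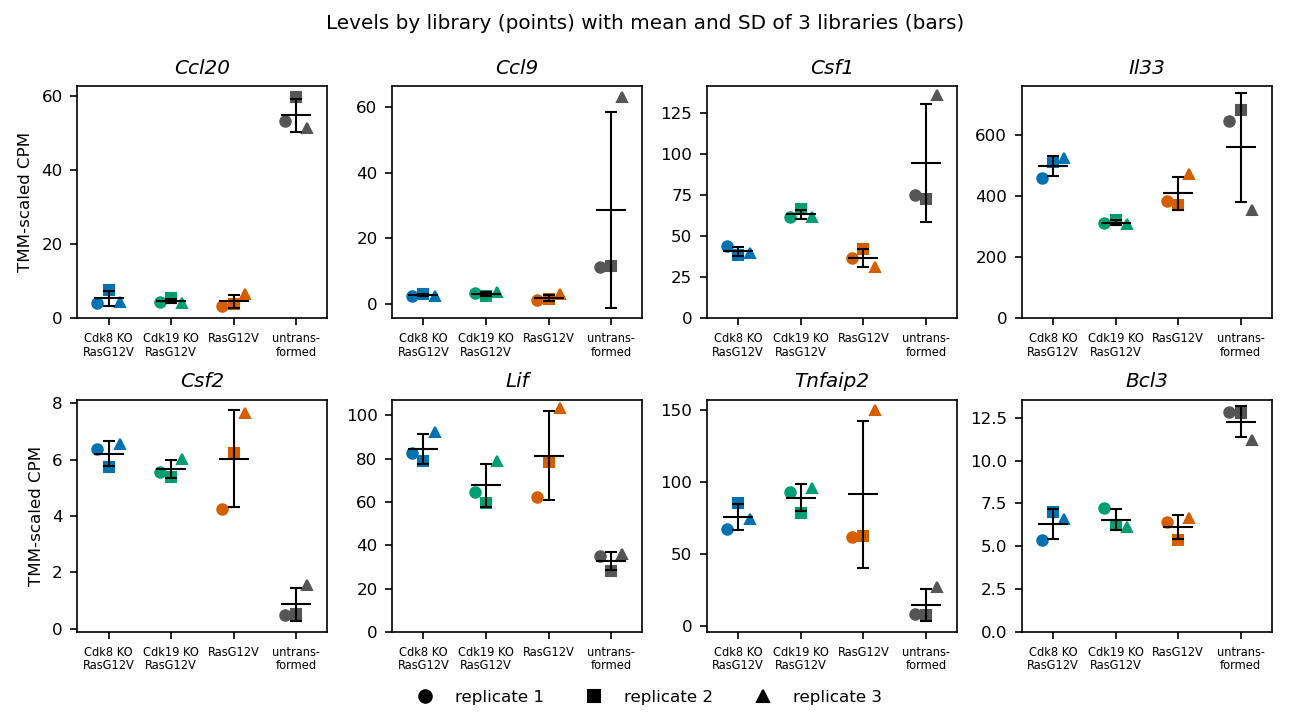
TMM-scaled CPM of 8 members in each library (points, shape by replicate number) with mean and SD of 3 libraries (black bars) for Cdk8 knockout, Cdk19 knockout, RasG12V and untransformed cells; an SD bar below 0 is drawn in full. Ccl20 is under 8 CPM in all transformed libraries and above 51 CPM in untransformed ones, and replicate 3 of untransformed cells stands apart for Ccl9, Csf1 and Il33.

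**Figure D3:**
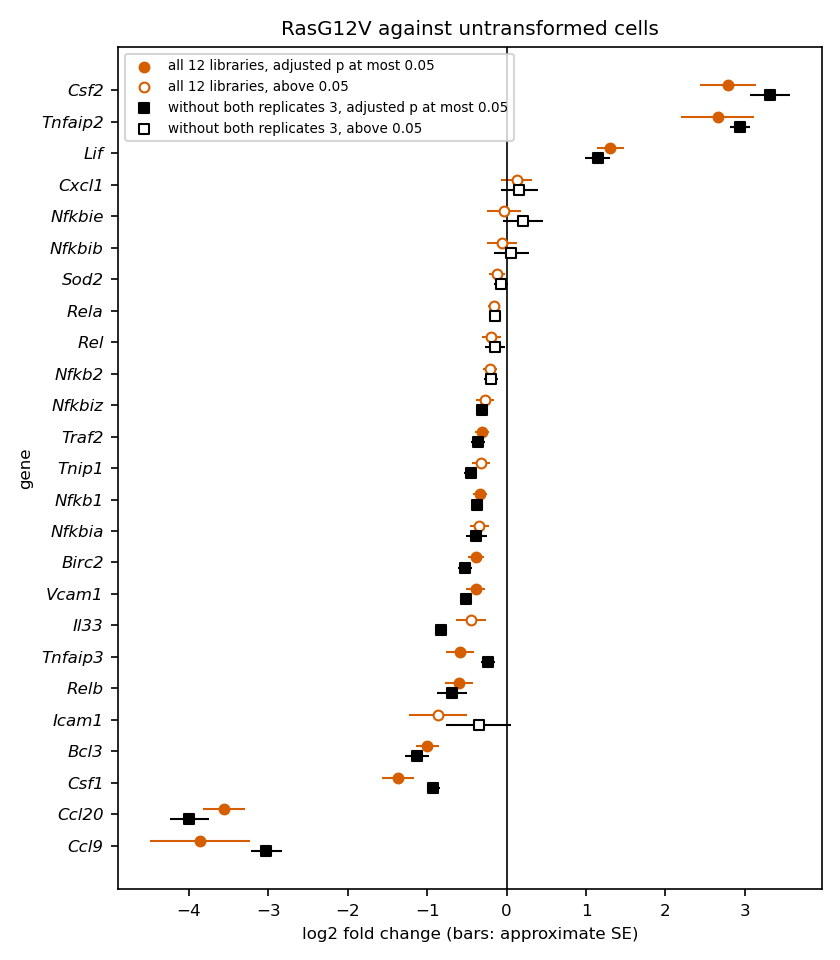
Log2 fold change of RasG12V against untransformed cells for 25 members (Tslp, which had no counts in untransformed cells, is left out), with all 12 libraries (circles) and without replicate 3 of either group (squares); bars are approximate standard errors and filled symbols passed an adjusted p of 0.05. Leaving out both libraries adds calls for Il33, Nfkbia, Nfkbiz and Tnip1, all lower.

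Each knockout was also set against untransformed cells, which asks how far the transformed knockout cells lay from the parental state. The untransformed libraries are the same as above, so these results share their controls. In Cdk8 knockout cells 4 members rose and 10 fell, against 24.4% of all genes changed (12.3% higher and 12.2% lower). In Cdk19 knockout cells 4 rose and 10 fell as well, against 25.3% of genes (12.4% higher and 12.9% lower). A fit without Cdk8 knockout replicate 2 called 9 members in Cdk8 knockout cells, against 17.8% of genes. Without the 2 libraries that stood apart, 4 rose and 15 fell in Cdk8 knockout cells, against 42.2% of genes (19.9% higher and 22.3% lower). In Cdk19 knockout cells 4 rose and 13 fell, against 43.6% (21.1% higher and 22.5% lower).

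Csf2, Lif, Tnfaip2 and Tslp were the members that rose in either knockout. Csf2 was higher by a log2 fold change of 2.83 (SE 0.35, edgeR adjusted p = 0.000112) in Cdk8 knockout and of 2.70 (SE 0.35, 0.000141) in Cdk19 knockout cells. With 10 libraries these became 3.58 and 3.45 (adjusted p = 2.42e-10 and 4.45e-10), and without untransformed replicate 3 alone 3.59 and 3.46. Tnfaip2 was higher in Cdk8 knockout cells (log2 fold change 2.38, SE 0.46, adjusted p = 0.00224) and in Cdk19 knockout cells (log2 fold change 2.62, SE 0.46, adjusted p = 0.00122). With 10 libraries its log2 fold changes were 3.23 and 3.47 (adjusted p = 4.48e-13 and 1.44e-13), and without untransformed replicate 3 alone 3.24 and 3.48. Lif was higher in Cdk8 knockout cells (log2 fold change 1.36, SE 0.17, adjusted p = 0.000116; with 10 libraries 1.42, adjusted p = 1.59e-05) and in Cdk19 knockout cells (log2 fold change 1.04, SE 0.17, adjusted p = 0.000728; with 10 libraries 1.10, adjusted p = 0.00011). Tslp was at least 10.8-fold higher in Cdk8 knockout and 13.9-fold higher in Cdk19 knockout cells over the floor of 3 counts (adjusted p = 0.000432 and 0.000217, and with 10 libraries 0.000137 and 4.36e-05).

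Ccl9 fell in Cdk8 knockout cells (log2 fold change -3.36, SE 0.60, adjusted p = 0.00143) and in Cdk19 knockout cells (log2 fold change -3.18, SE 0.60, adjusted p = 0.00192). With 10 libraries its log2 fold changes were -2.05 and -1.86 (adjusted p = 1.8e-09 and 6.23e-09), and without untransformed replicate 3 alone -2.04 and -1.86. Ccl20 was 10.1-fold lower in Cdk8 knockout cells (log2 fold change -3.34, SE 0.26, adjusted p = 3.52e-06; with 10 libraries -3.38, adjusted p = 5.39e-08) and 11.7-fold lower in Cdk19 knockout cells (log2 fold change -3.55, SE 0.27, adjusted p = 2.91e-06; with 10 libraries -3.61, adjusted p = 3.65e-08). Bcl3 was 1.94-fold lower in Cdk8 knockout cells (log2 fold change -0.95, SE 0.14, adjusted p = 0.000363; with 10 libraries -1.02, adjusted p = 2.68e-06) and 1.87-fold lower in Cdk19 knockout cells (log2 fold change -0.91, SE 0.14, adjusted p = 0.000486; with 10 libraries -0.98, adjusted p = 4.8e-06), and no library of either overlapped the untransformed ones.

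Csf1 and Il33 were each called in 1 knockout with all libraries. Csf1 fell in Cdk8 knockout cells (log2 fold change -1.21, SE 0.20, adjusted p = 0.000911; with 10 libraries -0.87, adjusted p = 1.35e-08). It missed the threshold narrowly in Cdk19 knockout cells (log2 fold change -0.58, SE 0.20, adjusted p = 0.0508), and passed it without untransformed replicate 1 or 2 (0.0274 and 0.021) or with 10 libraries (log2 fold change -0.23, SE 0.07, adjusted p = 0.0153). Il33 fell in Cdk19 knockout cells (log2 fold change -0.84, SE 0.19, adjusted p = 0.00641; with 10 libraries -1.09, adjusted p = 4.94e-11). It did not pass the test in Cdk8 knockout cells (log2 fold change -0.17, SE 0.19, adjusted p = 0.583), except without untransformed replicate 3 (log2 fold change -0.41, adjusted p = 0.0115) or with 10 libraries (log2 fold change -0.42, SE 0.06, adjusted p = 2.62e-05).

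Several smaller decreases kept their direction in every fit, but most of their calls were lost in some fits that left out 1 library. Nfkbia and Nfkbiz fell in Cdk8 knockout cells (log2 fold change -0.46, SE 0.12, adjusted p = 0.0153; log2 fold change -0.41, SE 0.11, adjusted p = 0.0169) and in Cdk19 knockout cells (log2 fold change -0.44, SE 0.12, adjusted p = 0.019; log2 fold change -0.36, SE 0.11, adjusted p = 0.0311). Nfkb1, Relb and Vcam1 fell in Cdk8 knockout cells (adjusted p = 0.0167, 0.0356 and 0.0195), and Relb, Tnfaip3 and Tnip1 in Cdk19 knockout cells (adjusted p = 0.00739, 0.0295 and 0.027). Except for Relb in Cdk19 knockout cells, each of these calls was lost with some library left out. In Cdk8 knockout cells the call was lost without Cdk8 knockout replicate 1 or 2 for Nfkb1 (0.0909 and 0.0647) and Nfkbia (0.0521 and 0.0877). For Nfkbiz it was lost without untransformed replicate 1 or 2 or Cdk8 knockout replicate 2 (0.0661, 0.061 and 0.096). For Vcam1 it was lost without untransformed replicate 3 or Cdk8 knockout replicate 1 or 2 (0.056, 0.086 and 0.0665). For Relb it was lost without untransformed replicate 1 or 3 (0.0676 and 0.0932), any Cdk8 knockout library (0.0987, 0.0639 and 0.121) or Cdk19 knockout replicate 1 or 2 (0.057 and 0.0584), in the fit on 2 groups (0.0544) and without the filter on low counts (0.115). In Cdk19 knockout cells it was lost without Cdk19 knockout replicate 1 or 2 for Nfkbia (0.0684 and 0.104), and without these or untransformed replicate 3 for Tnfaip3 (0.106, 0.105 and 0.109). It was also lost without any Cdk19 knockout library or untransformed replicate 1 or 2 for Nfkbiz (0.0578 to 0.115), and without any library of either group for Tnip1 (0.0512 to 0.109). Without the filter on low counts it was lost for Nfkbia (0.0574) and Tnfaip3 (0.0575). With 10 libraries all of these members were called in the same knockouts and direction, and Tnfaip3, Tnip1, Traf2 and Rel were also called in Cdk8 knockout cells (adjusted p = 0.00232, 0.0289, 0.00278 and 0.0215) and Vcam1 and Traf2 in Cdk19 knockout cells (adjusted p = 0.00309 and 0.0213). Birc2 fell in both knockouts (log2 fold change -0.57, SE 0.10, adjusted p = 0.00147 in Cdk8 knockout and log2 fold change -0.56, SE 0.10, adjusted p = 0.00173 in Cdk19 knockout cells; with 10 libraries -0.57 and -0.56), and neither call was lost with 1 library left out.

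The comparison of each knockout with RasG12V cells asked what the loss of either Mediator kinase did to these genes in transformed cells. With all 12 libraries no member passed the test in Cdk8 knockout cells, where edgeR called 0% of all 14283 genes, and none did in Cdk19 knockout cells, where it called 0.0140%. At an unadjusted p under 0.05 the members numbered 0 in Cdk8 knockout cells, against 6.10% of genes, and 1 in Cdk19 knockout cells, against 7.62%. DESeq2 called 0 members in Cdk8 knockout cells (0.210% of genes) and 1 in Cdk19 knockout cells (0.462%). The log2 fold changes of the 26 members ran from -0.78 (Tslp) to 0.49 (Ccl9) in Cdk8 knockout cells, and 25 of them were under 0.5 in size. The replicates of RasG12V cells were spread widely for several members, as the values above show for Tnfaip2 and Lif.

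Without the 2 libraries that stood apart, which leaves 2 RasG12V libraries, 2 members rose and none fell in Cdk8 knockout cells, against 1.59% of genes changed (1.18% higher and 0.414% lower). In Cdk19 knockout cells 4 rose and 1 fell, against 2.01% (1.11% higher and 0.897% lower). Ccl9 was higher in both, by a log2 fold change of 0.97 (SE 0.21, edgeR adjusted p = 0.0264) in Cdk8 knockout and of 1.16 (SE 0.21, 0.00549) in Cdk19 knockout cells. Il33 was higher in Cdk8 knockout cells (log2 fold change 0.41, SE 0.07, adjusted p = 0.00346) and lower in Cdk19 knockout cells (log2 fold change -0.26, SE 0.06, adjusted p = 0.0429). Csf1 was higher in Cdk19 knockout cells (log2 fold change 0.69, SE 0.08, adjusted p = 8.4e-05, 1.61-fold), and was not called in Cdk8 knockout cells (log2 fold change 0.06, SE 0.08, adjusted p = 0.754). Tnfaip2 and Vcam1 were higher in Cdk19 knockout cells (log2 fold change 0.53, SE 0.10, adjusted p = 0.00735; log2 fold change 0.26, SE 0.07, adjusted p = 0.0487), Vcam1 close to the threshold. RasG12V replicate 3 had the highest Ccl9, Il33, Tnfaip2 and Vcam1 of its group, and the calls for these 4 genes were made with both libraries left out and in none of the fits that left out 1. With all libraries Tnfaip2 was at -0.04 (adjusted p = 0.989) in Cdk19 knockout cells, a change of sign.

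Csf1 in Cdk19 knockout cells was also called in fits that kept RasG12V replicate 3. Its 3 libraries lay above all 3 RasG12V libraries, with a log2 fold change of 0.78 over all libraries (SE 0.20, edgeR adjusted p = 0.337), and the call was made by DESeq2 (0.79, adjusted p = 0.0407) and by edgeR without untransformed replicate 3 (0.78, 0.0182). The latter was the only 1 of the 12 fits with 1 library left out that called it. It was not called by edgeR on these 2 groups alone (0.329), with the replicate block (0.325) or without RasG12V replicate 3 alone (0.467). Nor was it called without any 1 Cdk19 knockout library (0.634 to 0.9).

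**Figure D4:**
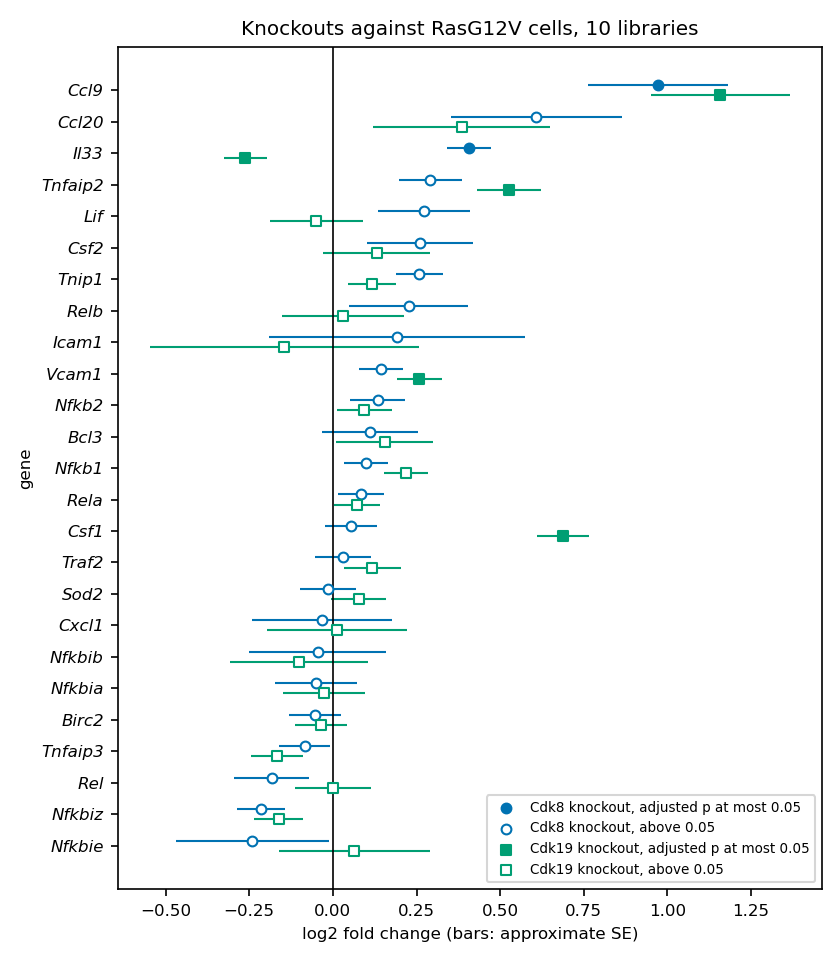
Log2 fold change of Cdk8 knockout (circles) and Cdk19 knockout (squares) against RasG12V cells for 25 members (Tslp left out) in the fit on 10 libraries; bars are approximate standard errors and filled symbols passed an adjusted p of 0.05. Ccl9 is higher in both knockouts, Il33 lies on opposite sides of 0, and Csf1 is higher in Cdk19 knockout cells.

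The knockouts were compared with each other to ask whether losing 1 kinase or its paralog left these genes at different levels. Neither group holds a library that stood apart. With all 12 libraries in the fit, no member was called, against 0.105% of all genes, and DESeq2 called 0, against 0.805%. At an unadjusted p under 0.05 there were 2 members, against 7.19% of genes. With 10 libraries 1 was higher and 1 lower in Cdk8 knockout cells, against 5.32% of genes (3.59% higher and 1.72% lower). The same 2 members were called in a fit on the 6 knockout libraries alone (3.63% of genes) and in a fit without untransformed replicate 3 (0.501%). The latter was the only 1 of the 12 fits with 1 library left out that called them. Neither was called when any knockout library was left out.

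Csf1 was the lower one: its 38.8 to 43.8 CPM in Cdk8 knockout cells lay below the 61.4 to 66.5 CPM in Cdk19 knockout cells, without overlap. The log2 fold change was -0.63 in each of the fits named here, with an adjusted p of 0.437 in edgeR with all libraries, 1.04e-05 with 10 libraries, 3.83e-05 in the fit on the 6 knockout libraries and 0.0236 without untransformed replicate 3. Over the fits that left out 1 library it ran from -0.68 to -0.59. Il33 was the higher one: its 460.1 to 524 CPM in Cdk8 knockout cells lay above the 307 to 321 CPM in Cdk19 knockout cells, also without overlap. Its log2 fold change was 0.67, with an adjusted p of 0.337 with all libraries, 7.07e-07 with 10, 6.53e-06 in the fit on the 6 and 0.0113 without untransformed replicate 3. With 1 library left out it ran from 0.63 to 0.73. The summed mesothelial markers were also higher in Cdk8 than in Cdk19 knockout cells without overlap (1477 to 1545 against 1205 to 1297 CPM), and their part in these differences was not tested. Lif, Nfkb1 and Nfkbie also did not overlap between the knockouts, but none of the 3 passed the test in the fits with all or with 10 libraries. Over the 26 members the count without overlap was 5, against 20.7% of all genes tested.

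The other genes of the pathway, from 3 lists, were set beside the share of 23.4% of all genes that changed in RasG12V against untransformed cells. Of 30 tested kinases, adaptors and regulators (31 listed), 3 rose and 3 fell, and with 10 libraries 5 rose and 6 fell, against 40.0% of genes. Card10, a scaffold that links receptors to the IkB kinase, averaged 27.0 ± 1.6 CPM in RasG12V and 116 ± 7.4 CPM in untransformed cells (log2 fold change -2.11, edgeR adjusted p = 3.79e-08; with 10 libraries -2.19). Within the IkB kinase itself, Ikbkb, the catalytic subunit of the canonical branch, averaged 126 ± 8.5 CPM in RasG12V and 106 ± 5.1 CPM in untransformed cells (0.25, adjusted p = 0.0277; with 10 libraries 0.32). Ikbkg, the regulatory subunit NEMO, averaged 156 ± 31 CPM in RasG12V and 208 ± 14 CPM in untransformed cells (-0.41, adjusted p = 0.0223; with 10 libraries -0.65). Irak4, a kinase downstream of the interleukin 1 receptor, was higher (0.37, adjusted p = 0.0156; with 10 libraries 0.23). The calls for Ikbkb and Ikbkg were lost without replicate 1 or 2 of untransformed or of RasG12V cells (adjusted p = 0.0766 to 0.121 and 0.0633 to 0.099), and that for Irak4 without untransformed replicate 1 (0.0753). All 3 were lost in the fit on 2 groups (0.121, 0.152 and 0.123), and Ikbkb without the filter on low counts (0.0861).

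Of 18 tested receptors and receptor antagonists (27 listed), 4 rose and 4 fell in RasG12V cells, and with 10 libraries 3 rose and 4 fell. Il1rl1, the receptor for Il33, averaged 0.484 ± 0.047 CPM in RasG12V and 1.47 ± 0.15 CPM in untransformed cells (log2 fold change -1.60, edgeR adjusted p = 0.000388; with 10 libraries -1.62). Fas, a death receptor, and Ltbr, which drives the non-canonical branch, were lower too (-0.75 and -0.50, adjusted p = 0.00129 and 0.00344; with 10 libraries -0.77 and -0.63), while Il1r1, the receptor for interleukin 1, was higher (0.97, adjusted p = 0.00473; with 10 libraries 0.72). The fit on 2 groups lost the calls for Ltbr and Il1r1 (0.0521 and 0.0529). Of 9 other cytokines tested (34 listed), none rose and 3 fell: Il18, Clcf1 and Il15 (-2.32, -0.77 and -0.87, adjusted p = 0.000588, 0.006 and 0.0256; with 10 libraries -2.53, -0.95 and -1.24). With 10 libraries 1 of 10 tested rose and 4 fell. The call for Il15 was lost without replicate 1 or 2 of untransformed or of RasG12V cells (0.0512 to 0.0985) and in the fit on 2 groups (0.117). Il1b, Il6, Ccl5, Osm, Tnfsf10 and Tnfsf11 had no count in any library.

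With all libraries no gene of the 3 lists was called between either knockout and RasG12V cells or between the knockouts. With 10 libraries Il1rn, the antagonist of the interleukin 1 receptor, was higher in Cdk8 knockout cells than in RasG12V cells (log2 fold change 1.55, edgeR adjusted p = 0.000577) and than in Cdk19 knockout cells (0.92, 0.0021). With all libraries these differences were 0.67 and 0.92 (adjusted p = 0.887 and 0.78), and RasG12V replicate 3 had 12.4 CPM of Il1rn, against 3.68 and 3.48 CPM in the other RasG12V libraries. Kitl, the ligand of the receptor Kit, averaged 301 ± 13 CPM in Cdk8 knockout and 241 ± 10 CPM in Cdk19 knockout cells (0.32, adjusted p = 0.00118; with all libraries 0.32, adjusted p = 0.299).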

How the data were processed

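Each library is 1 table of gene counts as the authors deposited it, with unstranded, forward-strand and reverse-strand columns. Reads were aligned to GRCm38.p6 with STAR 2.6.0a, per the submitters' processing notes, and their gene annotation is not given in the sources used here. RNA was depleted of ribosomal RNA and made into libraries with a TruSeq RNA kit, per the labels' protocols. The reverse-strand column (column 4) was used, because its reads outnumbered those on the forward strand 24.7 to 28.9 times. Unmapped reads (2.10% to 3.34%), reads that map to several places (23.0% to 26.3%), reads outside genes (4.31% to 5.85%) and ambiguous reads (0.963% to 1.04%) were left out of library sizes. Symbols and coordinates came from GENCODE M21, which matched 54079 of 54146 identifiers.

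The tests were those of edgeR 4.0.16 under R 4.3.3, with TMM factors, genes kept by filterByExpr on the groups, and robust glmQLFit with glmQLFTest. The 12 libraries and 4 groups shared 1 fit without a block, with Benjamini-Hochberg adjustment over 14283 genes, or 14493 without the 2 libraries that stood apart, and a threshold of 0.05. An SE is the size of the log2 fold change over the root of its F statistic, and so approximate. A floor takes in counting error alone, as reads carried no molecular identifiers and may repeat a molecule. Alternatives were RLE factors, no filter, DESeq2 1.42.0, a replicate block, fits on 2 groups and leaving out libraries. Scripts were tested on simulated data. The members, lists and the choice of libraries to leave out were made with earlier results of these data known. Every library's value is given for members that passed the threshold in some comparison and averaged 1 CPM or more in some group. Up to 4 genes of each pathway list were named by adjusted p.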

Additional observations from a re-analysis of the deposited data

Results flagged for a closer look

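The Cdk8 and Cdk19 knockouts differed from each other in 2 of the 26 members tested in a direct test of the difference without replicate 3 of RasG12V and of untransformed cells. The same fit called 5.32% of all genes tested. Csf1 was lower in Cdk8 than in Cdk19 knockout cells (log2 fold change -0.63), and Il33 was higher (0.67). The libraries of the 2 knockouts did not overlap for either gene, nor for 20.7% of all genes tested with 12 libraries. With all 12 libraries in the edgeR fit neither difference was called (adjusted p = 0.437 for Csf1 and 0.337 for Il33), nor by DESeq2.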

How the results depend on the processing

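Counts of members past an adjusted p of 0.05 are given in the order of the comparisons of RasG12V with untransformed cells, Cdk8 knockout with RasG12V cells, Cdk19 knockout with RasG12V cells, Cdk8 with Cdk19 knockout cells, and Cdk8 and then Cdk19 knockout with untransformed cells. With all libraries they were 14, 0, 0, 0, 14 and 14. A fit with replicate block gave 16, 0, 0, 0, 15 and 15, with added calls for Nfkbia and Tnip1 in RasG12V (adjusted p = 0.0272 and 0.0277), Traf2 in Cdk8 knockout (0.0332) and Vcam1 in Cdk19 knockout (0.0288), each against untransformed cells. Over all 14283 genes tested the fit with replicate block called 3685, 1, 2, 17, 3750 and 3984, against 3340, 0, 2, 15, 3490 and 3608 without it. The labels do not say what a shared replicate number means. Deviations from the group means correlated over 0.1 in 8 of 18 pairs of libraries with the same number (-0.168 to 0.282) and in 6 of 36 pairs with other numbers, and 6 of 12 libraries correlated best with their own number. Leaving out 1 library gave 9 to 16, 0, 0 to 1, 0 to 2, 9 to 17 and 10 to 15. Over all genes tested these fits called 2359 to 4808, 0 to 3, 0 to 21, 0 to 133, 2529 to 4880 and 2649 to 5094. Without both replicates 3 the counts of the comparisons among transformed cells were 2, 5 and 2, against 1.59%, 2.01% and 5.32% of genes. A fit on the 2 groups compared called 8 members in RasG12V against untransformed cells (11.4% of genes) and 2 between the knockouts (3.63%). DESeq2 called 1 member in Cdk19 knockout against RasG12V cells (0.462%). RLE factors changed no member's call. Without the filter on low counts the calls lost against untransformed cells were Relb, Tnfaip3 and Traf2 in RasG12V (adjusted p = 0.0814, 0.0573 and 0.103), Relb in Cdk8 knockout (0.115) and Nfkbia and Tnfaip3 in Cdk19 knockout cells (0.0574 and 0.0575), and Tnip1 in RasG12V (0.0441) and Vcam1 in Cdk19 knockout cells (0.0253) were gained.

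For members, directions were followed over the fits only in comparisons called with all or with 10 libraries. Among these the direction turned for 2 members, both in Cdk19 knockout against RasG12V cells. Members not called could turn too. Tnip1 averaged 54.7 CPM in Cdk19 knockout cells, against 56.5 CPM in RasG12V cells, or 50.7 CPM without RasG12V replicate 3. Tnfaip2 had a log2 fold change of -0.04 with all libraries, 0.10 with the replicate block, 0.53 without both replicates 3, 0.05 without Cdk19 knockout replicate 2, and from -0.25 without RasG12V replicate 1 to 0.52 without RasG12V replicate 3 when 1 library was left out. Vcam1 had 0.08 with all libraries, and from -0.014 without RasG12V replicate 1 to 0.25 without RasG12V replicate 3. The causes of these changes were not tested. Of the other values of single genes, 1562 kept direction and side of the threshold, 108 were no longer past it and 52 were newly past it. Depth limits Tslp, Icam1 and the 6 members too low to test.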
